A study of Mus musculus with 11 samples.

Results

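The genes described here encode the enzymes that make phosphatidylcholine and phosphatidylethanolamine in liver. They were chosen by name as the enzymes of the Kennedy pathway, the methylation route and acyl chain remodelling. All 10 genes, *Chka*, *Chkb*, *Pcyt1a*, *Chpt1*, *Cept1*, *Etnk1*, *Etnk2*, *Pcyt2*, *Pemt* and *Lpcat3*, were among the 13669 genes counted, and all 10 passed the filter on low counts (above 10 reads in 5 or more livers). Liver RNA was compared between 5 mice with a control virus (AAV-NC) and 6 mice with a virus that expresses a tough decoy RNA (AAV-TuD). Both groups were male C57BL/6J mice of WT genotype on a regular chow diet, obtained at 6 weeks of age. All 11 animals received a recombinant adeno-associated virus of serotype 8 by the tail vein, in which the liver-specific LP1 promoter drives the transgene. The decoy RNA binds *miR-379* and *miR-541*, and the control virus carries a negative control sequence. The animals were killed after a short fast, and the time between virus and killing is not given for these animals. Each library came from the liver of a separate mouse, and livers are named by their group and replicate number.

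Phosphatidylcholine is the main phospholipid of cell membranes, of lipoproteins and of bile. In the Kennedy pathway, choline or ethanolamine is phosphorylated by a kinase, activated with CTP by a second enzyme, and joined to diacylglycerol by a phosphotransferase. The liver can also methylate phosphatidylethanolamine to phosphatidylcholine, and acyltransferases then exchange the fatty acids of the finished lipid. The comparison addresses whether any of these steps differs in transcript level when the decoy is expressed in the liver. The paper reports that the decoy lowered *miR-379* and *miR-541*, the host transcripts *lncMGC* and *Mirg*, and other microRNAs of the same cluster. The comparison is thus not of *miR-379* and *miR-541* alone.

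The mature sequences are shown because base pairing of their seed (bases 2 to 8, in capitals) with a transcript is what the decoy competes for. The decoy targets the first pair. The study's text also names *miR-134* and *miR-382* of the same cluster on chromosome 12, for which the 5p arm is shown. Sequences are from RefSeq, build GRCm38.p6, plus strand, 5′ to 3′.
miR-379-5p, chr12:109709065-109709085: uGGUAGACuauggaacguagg
miR-541-5p, chr12:109742422-109742446: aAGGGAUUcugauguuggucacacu
miR-134-5p, chr12:109734145-109734166: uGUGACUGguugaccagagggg
miR-382-5p, chr12:109733781-109733802: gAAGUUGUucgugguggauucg

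For each gene, the longest 3′ UTR in the annotation was searched on its own strand for the 7 letters that pair with each seed. GTCTACC, the match to *miR-379-5p*, was in none of the 10 synthesis genes and in 5.2% of the 10928 tested genes with an annotated 3′ UTR. AATCCCT, the match to *miR-541-5p*, was also in none of the 10, against 8.95% of those genes. The match to *miR-134-5p*, CAGTCAC, was in 12.4% of the genes. The match to *miR-382-5p*, ACAACTT, was in 10.9%. The match to *miR-409-3p* was in 9.86% of the genes and in none of the 10 synthesis genes. The study assayed the 5p arm of *miR-409*, and the match to that arm was not searched. Among the synthesis genes, *Etnk1* held CAGTCAC once and *Chka* and *Etnk1* held ACAACTT once each. Their 3′ UTRs had a median length of 954.5 bases against 1214.5 bases over all genes, and the UTR used in liver may be shorter than the longest annotated one. The 3 matches are shown with 8 bases on each side, the match in capitals, on the plus strand of GRCm38, since they are the places where these genes carry a seed match.
Chka, miR-382-5p, chr19:3894345-3894367: ataaataaACAACTTgaaacctg
Etnk1, miR-134-5p, chr6:143203896-143203918: aaccttggCAGTCACtgcctcag
Etnk1, miR-382-5p, chr6:143204026-143204048: gggggagtACAACTTagaattaa
The *Chka* match starts at base 946 of a 3′ UTR of 962 bases, and both *Etnk1* matches lie in a 3′ UTR of 5090 bases. A match of letters is a description of the sequence, and its absence says only that these letters are not in the UTR searched.

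The libraries held from 8148531 to 12043959 reads on genes. Levels are given in CPM, the reads of a gene per 1000000 reads of its library, with library sizes scaled by edgeR's TMM factors, which lay between 0.667 and 1.24. The scaling matters because the *Mup* genes, which encode the major urinary proteins, took 38.6% of the reads in AAV-NC 7, 30.9% in AAV-TuD 3 and 28.4% in AAV-TuD 5, against 8.09% to 18.7% in the other 8 livers. Libraries were primed at the 3′ end of polyadenylated RNA, so a transcript gives about 1 read site whatever its length. CPM can thus be compared roughly between genes. The levels of *Chkb*, *Pcyt1a*, *Cept1* and *Lpcat3*, and ratios that use them, are less certain because another gene overlaps their 3′ end. The hepatocyte markers were high in every liver, with a summed level of 38159 to 44199 CPM with AAV-NC and 45377 to 51678 CPM with AAV-TuD. More of this sum came from *Alb* (means of 21089 and 28035 CPM) than from the other markers together, and the list had a median log2 fold change of -0.14. In whole liver RNA, fewer cells of a type and less RNA per cell cannot be told apart.

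None of the 10 synthesis genes reached an adjusted p under 0.05 when all 13334 tested genes were fitted with edgeR (quasi-likelihood, Benjamini-Hochberg), and none passed with DESeq2 or with limma-voom. Of all genes tested, 1543 passed, which is 11.6%. At an unadjusted p under 0.05, 2 of the 10 synthesis genes, *Chka* and *Chkb*, and 3509 of all genes passed. Among the 10, 5 log2 fold changes were above 0 and 5 below, with a median of -0.0016 against -0.0024 over all genes. The CPM of the 6 AAV-TuD livers overlapped that of the 5 AAV-NC livers for each of the 10 genes, whereas 7.38% of all genes tested had no overlap (4.11% higher and 3.27% lower with AAV-TuD). Higher calls made up 62.6% of the 1543 with TMM and 95.1% of the calls with library size alone, and on that scale the median of all genes was shifted to 0.23 (log2).

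**Figure D1:**
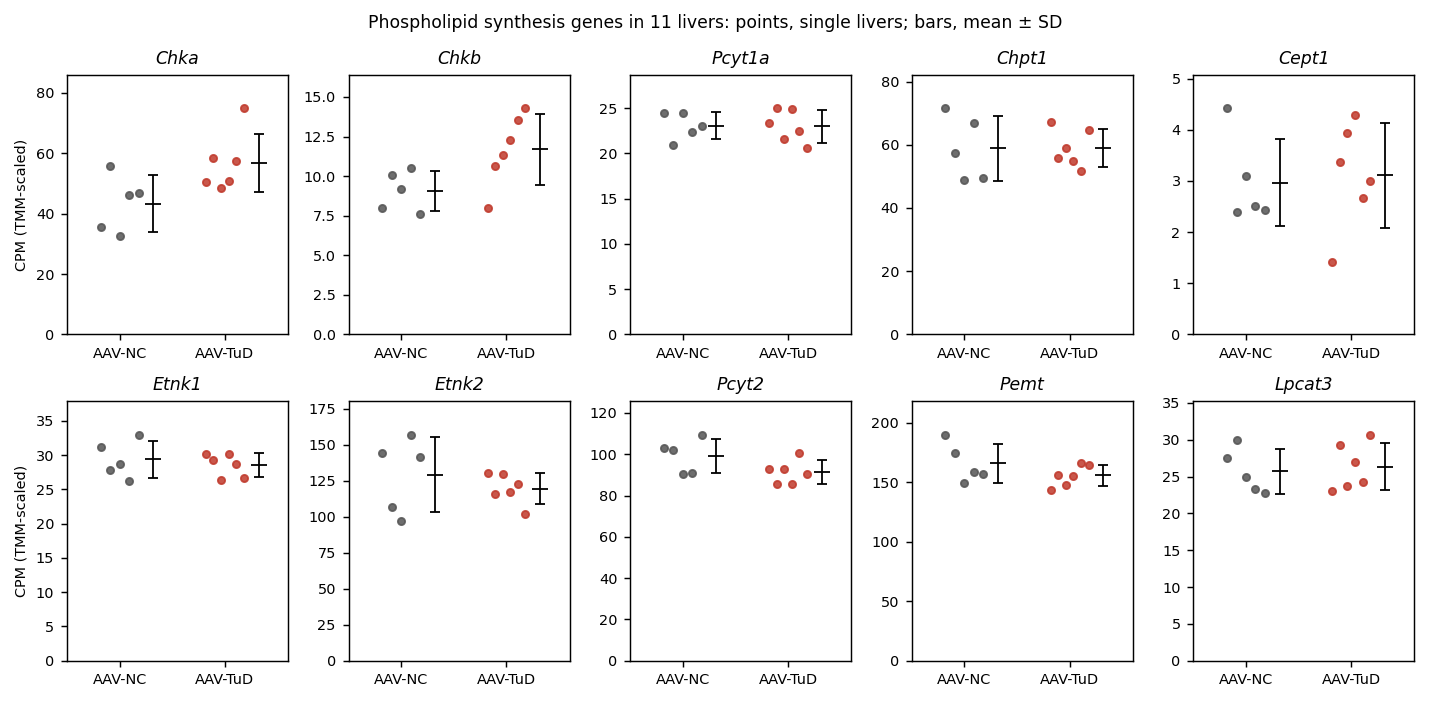
Level of each of the 10 synthesis genes in CPM (vertical axis from 0, TMM-scaled) in the 5 AAV-NC and 6 AAV-TuD livers. Each point is a liver, and the bar beside each group is its mean ± SD. The groups overlap in every panel, and the largest shift is that of *Chka*, with means of 43.4 and 56.8 CPM.

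The order of the 10 genes by mean level over all 11 livers was *Pemt* with 160.3 CPM, *Etnk2* with 124 CPM, *Pcyt2* with 94.9 CPM, *Chpt1* with 58.8 CPM, *Chka* with 50.7 CPM, *Etnk1* with 28.9 CPM, *Lpcat3* with 26.1 CPM, *Pcyt1a* with 23.0 CPM, *Chkb* with 10.5 CPM and *Cept1* at the low end. Most neighbours in this order held their places in all 11 livers. The exceptions were *Chpt1* over *Chka*, which held in 8 of 11 livers, *Etnk1* over *Lpcat3* in 8 of 11, and *Lpcat3* over *Pcyt1a* in 9 of 11. The order of these neighbours thus varied between livers, and differences between genes were not tested. *Chpt1* was above *Chka* in all 5 AAV-NC livers and in 3 of the 6 AAV-TuD livers.

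The choline kinases, which trap choline in the cell as phosphocholine, had the largest differences of the set. *Chka* (ENSMUSG00000024843, GRCm38 chr19:3851773-3894369, plus strand) encodes choline kinase alpha. Its level was 35.6, 55.9, 32.5, 46.1 and 46.8 CPM in AAV-NC 1, 2, 6, 7 and 8. With AAV-TuD it ran from 48.6 CPM through a median of 54.3 CPM to 74.9 CPM, in AAV-TuD 11. Of the 6 AAV-TuD livers, 3 were above all AAV-NC livers, and AAV-NC 2 lay among the AAV-TuD values. The means were 43.4 ± 9.40 CPM (SD, n = 5) and 56.8 ± 9.70 CPM (SD, n = 6). The difference was 0.39 on the log2 scale (SE 0.14), a fold of 1.31 with a 95% interval of 1.07 to 1.61, and edgeR's adjusted p was 0.0795. Without AAV-NC 2 the log2 fold change of *Chka* was 0.50 and its adjusted p 0.0330, and in the other 10 fits that left out a liver it stayed short of the threshold, with a lowest log2 fold change of 0.30.

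*Chkb* (ENSMUSG00000022617, chr15:89426360-89429908, minus strand), choline kinase beta, also phosphorylates ethanolamine. It had 7.996, 10.1, 9.18, 10.5 and 7.59 CPM in AAV-NC 1, 2, 6, 7 and 8, and a lowest value of 7.98, a median of 11.8 and a highest value of 14.3 CPM with AAV-TuD. AAV-TuD 3 was in the AAV-NC range and the other 5 AAV-TuD livers were above it. Means were 9.07 ± 1.27 CPM (SD, n = 5) and 11.7 ± 2.25 CPM (SD, n = 6), with a log2 fold change of 0.37 (SE 0.15), a fold of 1.29 (95% interval 1.04 to 1.61) and an adjusted p of 0.113 in edgeR. Leaving out AAV-TuD 3, one of the 3 livers rich in *Mup* reads, gave a log2 fold change of 0.46 and an adjusted p of 0.0238. With all 3 *Mup*-rich livers left out the values were 0.55 and 0.0258. Of the 11 fits that left out a single liver, *Chkb* was past the threshold in 1, that without AAV-TuD 3. In the others its adjusted p in edgeR was up to 0.227, and its lowest log2 fold change was 0.31, without AAV-TuD 11. With library size alone both kinases were past the threshold, at 0.64 for each, which is 0.41 and 0.40 above the median of all genes on that scale. *Chkb* overlaps a gene of the same strand, *Gm44502*, over 3337 of its 3549 bases, including its last 400 bases, so reads of the pair cannot be told apart.

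*Chka* and *Chkb* had a Pearson correlation of 0.66 over the 11 livers and 0.45 after the group means were removed. Both values describe livers that share library and scaling. The 45 pairs of synthesis genes ranged from -0.69 to 0.63 within groups, with a median of 0.017.

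The next step, activation of phosphocholine with CTP, is the main point of control of the choline branch. *Pcyt1a* (ENSMUSG00000005615, chr16:32430921-32475070, plus strand) encodes the alpha form of this enzyme (CCT alpha). The AAV-NC livers 1, 2, 6, 7 and 8 had 24.5, 20.9, 24.5, 22.4 and 23.1 CPM, and the AAV-TuD livers ran from 20.6 CPM, with a median of 22.9 CPM, to 25.0 CPM. It was the least variable gene of the set with AAV-NC, with a coefficient of variation of 6.53%. Means were 23.1 ± 1.505 CPM (SD, n = 5) and 23.0 ± 1.78 CPM (SD, n = 6), and the log2 fold change was -0.0053 (SE 0.081). The 95% interval of its fold change, 0.884 to 1.12, is the range of differences these livers leave for *Pcyt1a*, and the adjusted p in edgeR was 0.977.

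Choline phosphotransferase, the last enzyme of the choline branch, is encoded by *Chpt1* (ENSMUSG00000060002, chr10:88452745-88504073, minus strand). Its levels in AAV-NC 1, 2, 6, 7 and 8 were 71.5, 57.3, 48.9, 66.8 and 49.6 CPM. The AAV-TuD livers, from 51.7 CPM through a median of 57.3 CPM to 67.3 CPM, all fell inside that range. Mean levels were 58.8 ± 10.1 CPM (SD, n = 5) and 58.9 ± 6.00 CPM (SD, n = 6), and the fold was 1.001 with a 95% interval of 0.856 to 1.17 (edgeR, adjusted p = 0.994). The log2 fold change of 0.0020 (SE 0.11) had no stable sign. The paper's proteomic data list the protein of *Chpt1* among the mitochondrial proteins most raised with the decoy. The values here are of RNA, and protein was not measured in these libraries. The end of 1 *Chpt1* transcript is 95.05% identical over 303 bases to that of *Gm13131*, which was not among the genes tested.

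*Cept1* (ENSMUSG00000040774, chr3:106502260-106547802, minus strand) encodes an enzyme that transfers both choline and ethanolamine to diacylglycerol. It was the lowest of the set, with 15 to 53 reads per liver. AAV-NC 1, 2, 6, 7 and 8 had 4.42, 2.39, 3.10, 2.503 and 2.43 CPM. With AAV-TuD the lowest value was 1.41 CPM in AAV-TuD 3, the median 3.18 CPM and the highest 4.29 CPM. The log2 fold change was 0.07 (SE 0.26) and the fold 1.05, with a 95% interval of 0.717 to 1.54, the widest of the 10 (edgeR, adjusted p = 0.905). This interval leaves room for a difference of moderate size in *Cept1* in either direction.

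The ethanolamine kinases start the other branch of the Kennedy pathway. *Etnk1* (ENSMUSG00000030275, chr6:143167221-143232307, plus strand) measured 31.1, 27.8, 28.7, 26.3 and 33.0 CPM in AAV-NC 1, 2, 6, 7 and 8. Its AAV-TuD levels had a minimum of 26.3, a median of 29.0 and a maximum of 30.2 CPM, all inside the AAV-NC range. The fold was 0.972 (95% interval 0.865 to 1.09) and edgeR's adjusted p 0.795. *Etnk2* (ENSMUSG00000070644, chr1:133363572-133380336, plus strand), the ethanolamine kinase with the higher level here, varied more among the controls. Its AAV-NC values were 144, 107, 96.9, 157 and 142 CPM in AAV-NC 1, 2, 6, 7 and 8, and those with AAV-TuD were between 102 and 130.4 CPM with a median of 120 CPM, again inside the AAV-NC range. Means were 129 ± 25.9 CPM (SD, n = 5) and 120 ± 10.5 CPM (SD, n = 6), with a log2 fold change of -0.11 (SE 0.11), a 95% interval of the fold from 0.781 to 1.10, and an adjusted p of 0.587 in edgeR.

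*Pcyt2* (ENSMUSG00000025137, chr11:120610087-120617936, minus strand) encodes the enzyme that activates phosphoethanolamine with CTP, the regulated step of the ethanolamine branch. It had the lowest log2 fold change of the 10, -0.12 (SE 0.072). In AAV-NC 1, 2, 6, 7 and 8 it reached 103, 102, 90.4, 90.7 and 109 CPM. The AAV-TuD livers had a lowest value of 85.4, a median of 91.5 and a highest value of 101 CPM, and 3 of the 6 were below all AAV-NC livers. The means of 99.1 ± 8.30 CPM (SD, n = 5) and 91.3 ± 5.68 CPM (SD, n = 6) correspond to a fold of 0.922 with a 95% interval of 0.828 to 1.02, and edgeR's adjusted p was 0.326.

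*Pemt* (ENSMUSG00000000301, chr11:59970614-60046489, minus strand), the methyltransferase that turns phosphatidylethanolamine into phosphatidylcholine with S-adenosylmethionine, had the highest level of the set. Its level was 189.9 CPM in AAV-NC 1, 174 CPM in AAV-NC 2, 149.7 CPM in AAV-NC 6, 158 CPM in AAV-NC 7 and 157 CPM in AAV-NC 8. With AAV-TuD it lay between 144 and 166 CPM, with a median of 156 CPM, and 2 of the 6 livers were below all AAV-NC livers. The means were 166 ± 16.1 CPM (SD, n = 5) and 156 ± 9.03 CPM (SD, n = 6), a log2 fold change of -0.09 (SE 0.074) and a fold of 0.939 (95% interval 0.842 to 1.05, edgeR's adjusted p = 0.482).

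*Lpcat3* (ENSMUSG00000004270, chr6:124663027-124704418, plus strand) encodes the acyltransferase that puts polyunsaturated fatty acids into lysophosphatidylcholine. It had 27.6, 29.9, 25.0, 23.3 and 22.8 CPM in AAV-NC 1, 2, 6, 7 and 8, and the AAV-TuD livers spanned 23.0 to 30.7 CPM with a median of 25.6 CPM. Only AAV-TuD 11 was above all AAV-NC livers. The log2 fold change was 0.04 (SE 0.10), with a fold of 1.03, a 95% interval of 0.885 to 1.19 and an adjusted p of 0.863 in edgeR. *Pcyt1a*, *Cept1* and *Lpcat3* overlap a gene of the opposite strand at their 3′ end (*Slc51a*, *Dennd2d* and *Emg1*) by 567, 771 and 334 bases. The strand setting of the counting is not given in the sources used here, so reads in these overlaps cannot be told apart.

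**Figure D2:**
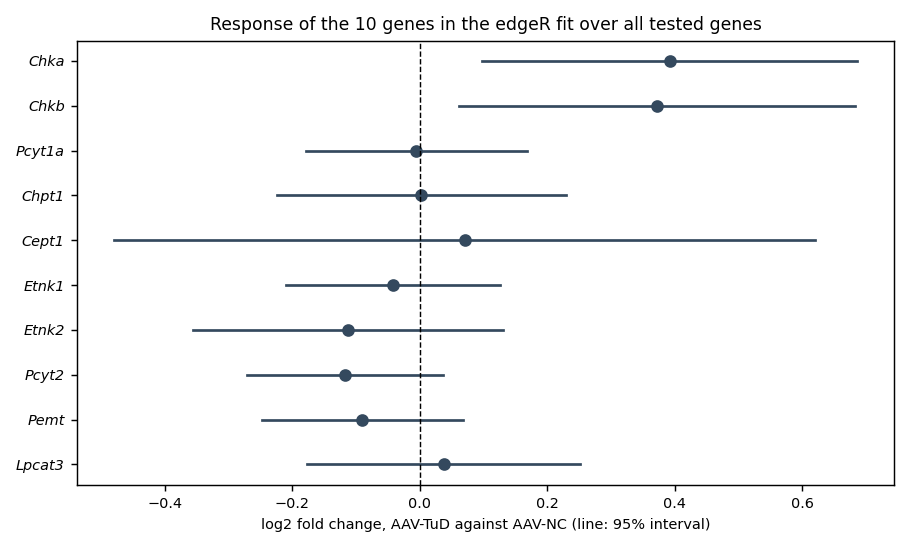
Log2 fold change of each synthesis gene with AAV-TuD against AAV-NC (horizontal axis) from edgeR. Points are the estimates and lines their 95% intervals, which span 0 for 8 genes and lie above 0 for *Chka* (0.39) and *Chkb* (0.37), whose adjusted p values are 0.0795 and 0.113.

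Enzymes that share a step, or that compete for a branch, were also compared within each liver, because a ratio of reads from the same library does not depend on the scaling. Of 5 pairs, none differed between the groups in a two-sided exact permutation test over the 462 splits of the livers, with adjustment over the 5 pairs. The test and the differences given are of the group means of the log2 ratio. The medians beside them are of the plain ratio, so the differences do not follow from the medians. The ratio of *Chpt1* to *Cept1* had a median of 20.02 with AAV-NC and 17.6 with AAV-TuD, a log2 difference of -0.0091 (exact permutation p = 0.983, adjusted p = 0.983). AAV-TuD 3, where *Cept1* was lowest, had a ratio of 46.3, and without it the difference was -0.26. For *Chka* to *Chkb* the medians were 4.42 and 4.72 (difference 0.05, exact permutation p = 0.753, adjusted p = 0.942). For *Etnk1* to *Etnk2* they were 0.233 and 0.244 (difference 0.05, exact permutation p = 0.701, adjusted p = 0.942). The activating enzymes of the branches, *Pcyt1a* to *Pcyt2*, had median ratios of 0.238 and 0.242 (difference 0.11, exact permutation p = 0.307, adjusted p = 0.942). *Pemt* to *Pcyt1a*, the methylation route against the choline branch, had medians of 7.06 and 6.54 (difference -0.08, exact permutation p = 0.433, adjusted p = 0.942).

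**Figure D3:**
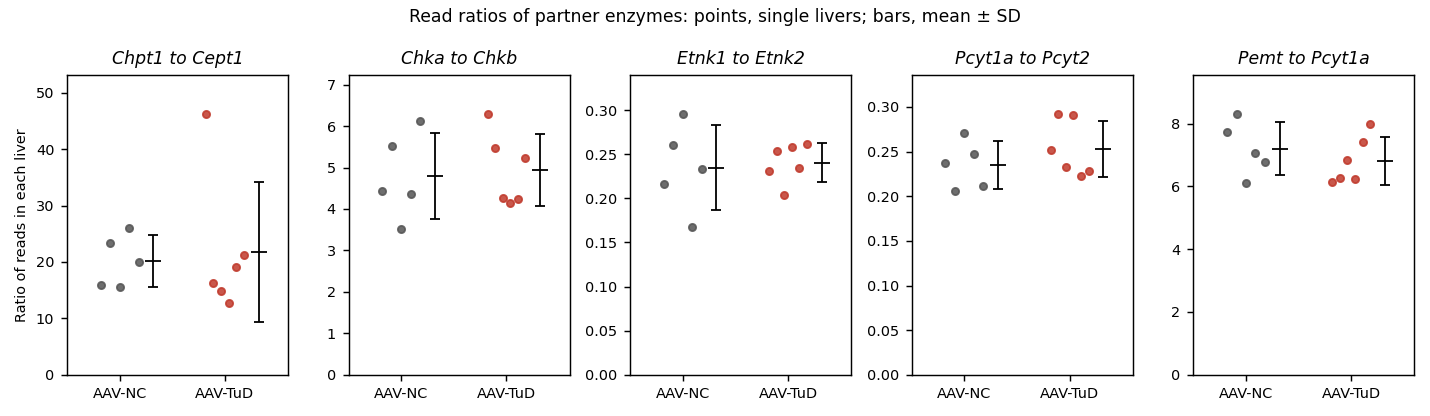
Ratio of the reads of partner enzymes in each liver (vertical axes from 0, no unit) for the 5 pairs. Points are livers and bars the mean ± SD, and the groups overlap in every pair. The point at 46.3 for *Chpt1* to *Cept1* is AAV-TuD 3.

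The reactions that supply these enzymes, and those that use their products, were described with 10 lists of other genes. Of 155 genes listed, 130 were tested and 22 were past the threshold, which is 16.9% against 11.6% of all genes. With AAV-TuD, 11 of them were higher (8.46%, against 7.24% of all genes) and 11 lower (8.46%, against 4.33%). The median log2 fold change of the 130 was 0.02. The lists were chosen with earlier results of these data known, so these shares are a description. The higher genes include *Gpat3*, *Pla2g4a* and *Pparg*, which passed the filter on low counts through the AAV-TuD livers. With library size alone, 20 were higher and none lower, and *Sgpl1*, *Lpin1*, *Dgat2*, *Aldh7a1*, *Ahcy*, *Cbs*, *Pnpla6*, *Lypla1*, *Abca1*, *Tmem30a*, *Apob* and *Hnf4a* were no longer past the threshold. Without the 3 *Mup*-rich livers, *Lpin1*, *Slc44a3*, *Ahcy*, *Cbs*, *Pld1*, *Lypla1* and *Tmem30a* lost it, with adjusted p values in edgeR from 0.0525 for *Pld1* to 0.102 for *Lypla1*.

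**Figure D4:**
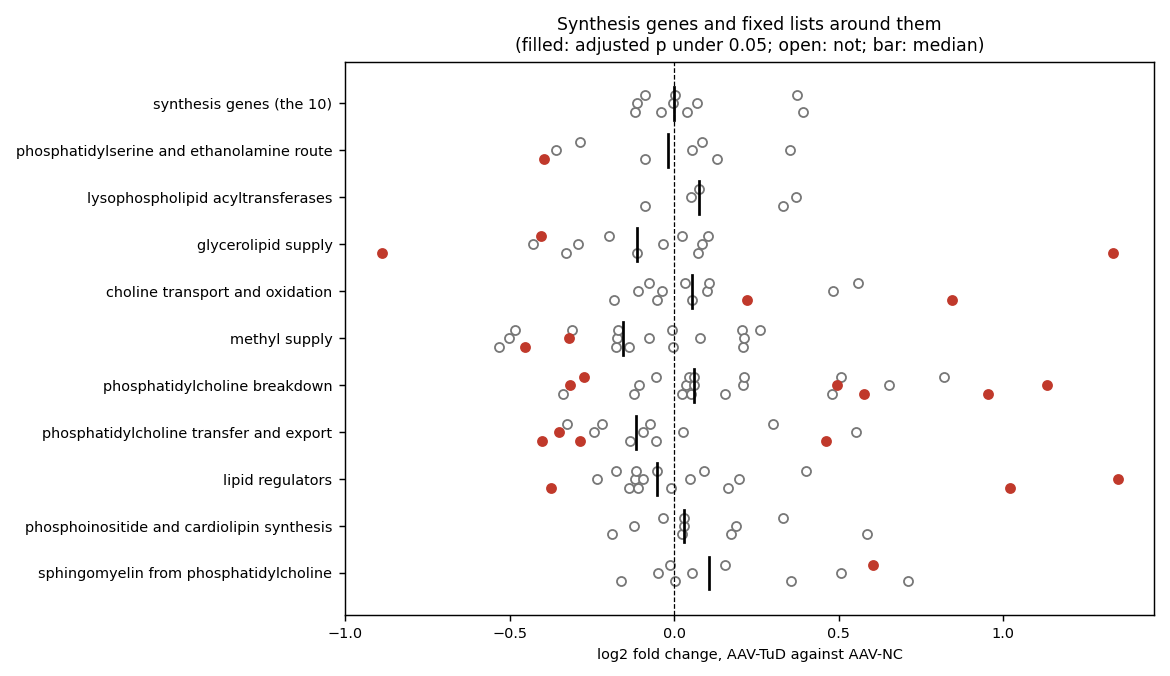
Log2 fold change with AAV-TuD against AAV-NC (horizontal axis) for the 10 synthesis genes (top row) and the tested genes of the 10 lists around them. Filled points had an adjusted p under 0.05 in edgeR, open points did not, and the bar is the median of the list. All points in the top row are open, and the filled points of the other rows number 11 on each side of 0.

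Of 14 tested genes of phosphatidylcholine transfer and export, 1 rose and 3 fell, with a median log2 fold change of -0.12. *Abcb4*, the canalicular transporter that moves phosphatidylcholine into bile, was at 260.0, 271, 232, 263 and 197 CPM in AAV-NC 1, 2, 6, 7 and 8. With AAV-TuD it went from 286 CPM through a median of 339 CPM to 382 CPM, above every AAV-NC liver. The log2 fold change was 0.46 and edgeR's adjusted p 0.00694. *Apob*, the structural protein of very low density lipoprotein, fell from a mean of 1603 to 1213 CPM (log2 fold change -0.40, adjusted p = 0.0146 in edgeR), with AAV-NC 6 at 1360 CPM and AAV-TuD 3 at 1417 CPM as the overlap. *Abca1*, which loads phospholipid and cholesterol onto apolipoprotein A-I, fell by 0.35 on the log2 scale (adjusted p = 0.0279). *Tmem30a*, the partner subunit of phospholipid flippases, fell by 0.29 (adjusted p = 0.0345), and for both the groups did not overlap. *Abca1* lost the threshold without any one of AAV-NC 1, AAV-NC 8 and AAV-TuD 5, 10 and 11 (adjusted p up to 0.0703). *Tmem30a* kept it in 3 of the 11 fits that left out a liver, those without AAV-NC 1, AAV-NC 2 or AAV-TuD 3 (up to 0.0833 in the others).

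Diacylglycerol is the lipid to which the phosphotransferases add their head group. Of 13 tested genes of glycerolipid supply, 1 rose and 2 fell, with a median log2 fold change of -0.11. *Dgat2*, which turns diacylglycerol into triglyceride, fell from 239.5, 193, 228, 217 and 194 CPM in AAV-NC 1, 2, 6, 7 and 8 to a range of 147 to 181 CPM with a median of 157 CPM. These groups did not overlap, and the log2 fold change was -0.40 (edgeR, adjusted p = 0.00600). *Lpin1*, a phosphatidate phosphatase that makes diacylglycerol, had 100.1, 58.6, 105, 88.1 and 26.5 CPM in the same 5 AAV-NC livers and 30.9 to 64.3 CPM with AAV-TuD. AAV-NC 8 was thus below all AAV-TuD livers. The log2 fold change of *Lpin1* was -0.89 with an adjusted p of 0.0458 in edgeR and -0.90 with 0.0642 in DESeq2. It was -1.11 without AAV-NC 8, and it was past the threshold in 3 of the 11 fits that left out a liver, those without AAV-NC 2, AAV-NC 8 or AAV-TuD 3 (adjusted p up to 0.119 in the others). *Gpat3*, a glycerol-3-phosphate acyltransferase, rose from a mean of 1.0002 to 2.497 CPM (log2 fold change 1.33, adjusted p = 0.0153). It had 6 to 13 reads in the AAV-NC livers and 13 to 43 in the AAV-TuD livers, and passed the filter on low counts through the latter.

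In choline transport and oxidation, 2 of 13 tested genes rose and none fell. *Slc44a3*, a choline transporter-like protein, rose from a mean of 3.04 to 5.46 CPM (log2 fold change 0.84, edgeR's adjusted p = 0.0133). *Aldh7a1*, which oxidises betaine aldehyde to betaine, rose from a mean of 137 to 160 CPM (log2 fold change 0.22, adjusted p = 0.0397) with no overlap between the groups, and was past the threshold in 3 of the 11 fits that left out a liver, those without AAV-NC 7, AAV-TuD 3 or AAV-TuD 5 (adjusted p up to 0.0994 in the others).

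Methylation by *Pemt* consumes S-adenosylmethionine and releases S-adenosylhomocysteine. Of 18 tested genes of methyl supply none rose and 2 fell, with a median log2 fold change of -0.15. *Ahcy*, which hydrolyses S-adenosylhomocysteine, had 669, 599, 747, 729 and 628 CPM in AAV-NC 1, 2, 6, 7 and 8 and 476 to 588 CPM with AAV-TuD, so that the groups did not overlap (log2 fold change -0.32, edgeR's adjusted p = 0.0241). *Cbs*, which takes homocysteine into transsulfuration, fell from a mean of 187 to 137 CPM (log2 fold change -0.46, adjusted p = 0.0291). AAV-NC 8 was at 273 CPM, and without it the log2 fold change of *Cbs* was -0.28. *Ahcy* lost the threshold without any one of AAV-NC 6, AAV-NC 7, AAV-TuD 4 and AAV-TuD 10 (adjusted p up to 0.0653), and *Cbs* without any one of AAV-TuD 4, 9 and 10 (up to 0.0704). The first enzyme of the cycle, *Mat1a*, chosen after its values were seen, had means of 1249 and 1318 CPM (adjusted p = 0.749).

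Of 23 tested genes of phosphatidylcholine breakdown, 4 rose and 2 fell. The group that rose included 2 phospholipases A2, *Pla2g4a* (log2 fold change 1.13, adjusted p = 0.0179 in edgeR) and *Pla2g7* (0.95, adjusted p = 0.0340), both with mean levels under 4 CPM. *Pld3*, a member of the phospholipase D family known as an exonuclease, rose by 0.49 (adjusted p = 0.0374). The fourth, *Pld1*, a phospholipase D that cleaves phosphatidylcholine, rose by 0.58 (adjusted p = 0.0466) and was named after its values were seen. *Lypla1*, a thioesterase also described as a lysophospholipase, fell by 0.28 on the log2 scale (adjusted p = 0.0178), and *Pnpla6*, a phospholipase of the endoplasmic reticulum, fell by 0.32 (adjusted p = 0.0326). The groups of *Pla2g4a*, *Lypla1* and *Pnpla6* did not overlap. *Pla2g4a* had 5 to 9 reads in the AAV-NC livers and 15 to 27 in the AAV-TuD livers. It passed the filter on low counts only through the AAV-TuD livers, so neither its lack of overlap nor its fits add support to its rise. When a liver was left out, *Pla2g4a* and *Lypla1* were past the threshold in all 11 fits. *Pla2g7* lost it without any one of AAV-NC 1, 2, 6 and 8 and AAV-TuD 4 and 10 (adjusted p up to 0.0793). *Pnpla6* kept it without AAV-NC 8, AAV-TuD 3 or AAV-TuD 5 (up to 0.0794 in the other fits), *Pld1* without AAV-NC 2 or AAV-TuD 3 (up to 0.107) and *Pld3* without AAV-NC 7 or AAV-TuD 3 (up to 0.0860).

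Among 17 regulators of lipid genes, 2 rose and 1 fell. *Nr0b2*, the repressor SHP induced by bile acids, rose from a mean of 7.33 to 14.8 CPM with no overlap (log2 fold change 1.02, edgeR's adjusted p = 0.00546). *Pparg*, a nuclear receptor of lipid storage, rose from 1.02 to 2.59 CPM (1.35, adjusted p = 0.00883). It had 7 to 14 reads in the AAV-NC livers and 15 to 39 in the AAV-TuD livers, and passed the filter on low counts through the latter. *Hnf4a*, a factor that maintains hepatocyte genes, fell from 154 to 119 CPM (-0.38, adjusted p = 0.0150).

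In the phosphatidylserine and ethanolamine route 1 of 8 tested genes, *Sgpl1*, fell (log2 fold change -0.40, adjusted p = 0.0132 in edgeR). *Sgpl1* encodes the lyase that releases phosphoethanolamine from sphingosine phosphate. In sphingomyelin synthesis 1 of 10 tested genes rose, *Sptlc2*, a subunit of serine palmitoyltransferase (0.60, adjusted p = 0.0168). None of 5 tested lysophospholipid acyltransferases and none of 10 tested genes of phosphoinositide and cardiolipin synthesis passed the threshold.

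**Figure D5:**
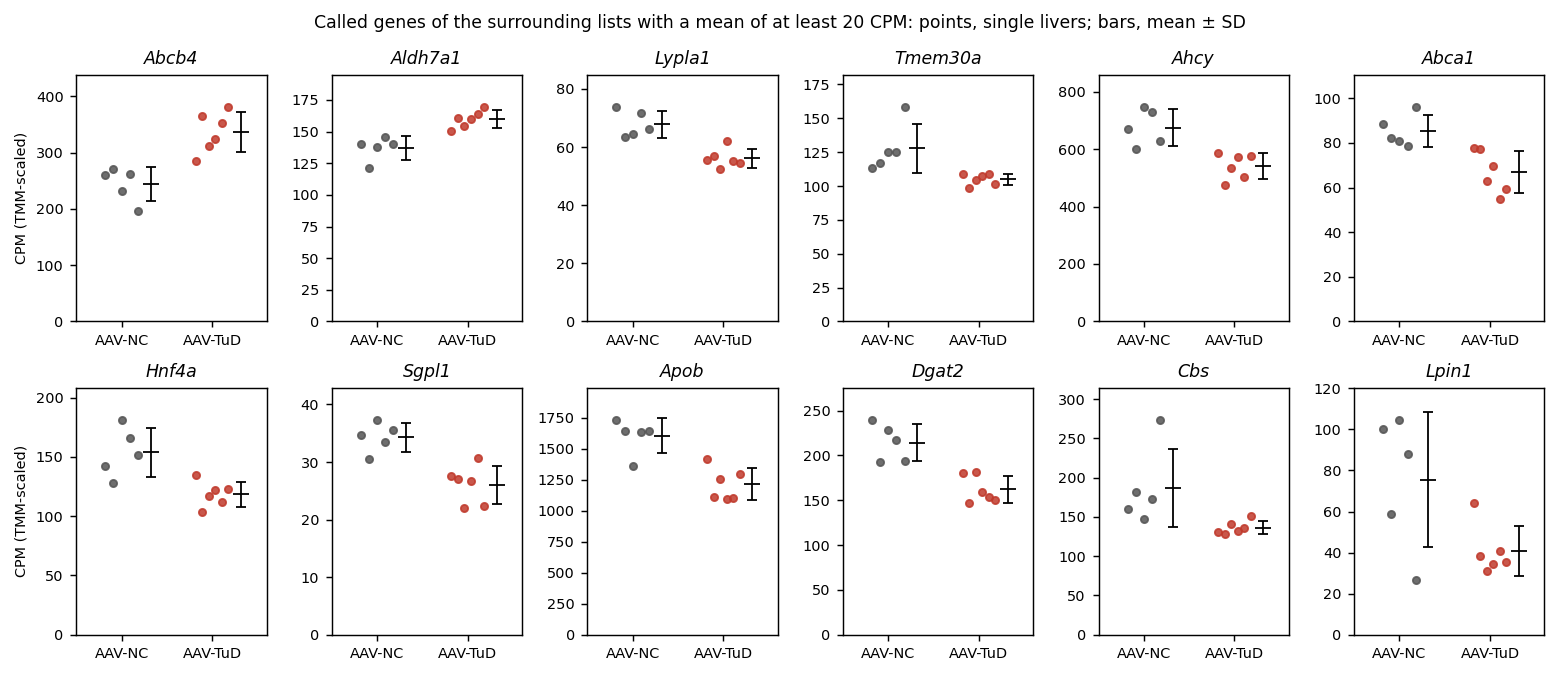
Levels in CPM (vertical axes from 0, TMM-scaled) of the 12 genes of the surrounding lists that passed the threshold and had a mean of at least 20 CPM, in order of log2 fold change. Points are livers and bars the mean ± SD. *Abcb4* and *Aldh7a1* were higher with AAV-TuD and the other 10 lower, and *Lpin1* and *Cbs* had the widest spread among AAV-NC livers.

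Markers of other liver cells moved with the same comparison, and their part in the values above was not tested. Of all genes tested, 7.24% were higher with AAV-TuD and 4.33% lower. Of 14 tested markers of stellate cells and fibroblasts 9 were higher, with a summed level of 256 to 339 CPM with AAV-NC and 439 to 586 CPM with AAV-TuD. *Col1a1* had the highest log2 fold change, 2.30, and *Hhip* the lowest, -0.25. Of 13 markers of Kupffer cells and macrophages 10 were higher (163 to 243 CPM and 197 to 537 CPM), from *Timd4* at 0.30 to *Lyz2* at 1.34. Of 6 cholangiocyte markers 5 were higher (25.1 to 46.7 CPM and 53.0 to 86.2 CPM), with *Spp1* highest at 2.20. Among these, *Krt19*, *Epcam* and *Prom1* had AAV-NC means of only 0.80, 0.66 and 0.86 CPM. They passed the filter on low counts through the AAV-TuD livers, so their calls add no support to the rise. Of 4 neutrophil and monocyte markers 3 were higher (17.4 to 24.2 CPM and 26.5 to 47.3 CPM), from *S100a9* at 0.32 to *Ccr2* at 1.74. *Ccr2* had an AAV-NC mean of 0.78 CPM and also passed the filter through the AAV-TuD livers. Of 12 sinusoidal endothelial markers 1, *Maf* at 0.28, was higher, and the lowest was *Fcgr2b* at -0.23. Of 9 hepatocyte markers 2, *Apob* and *Hnf4a*, were lower and none higher, from *Apob* at -0.40 to *Alb* at 0.41. Markers of T, B and NK cells were not analysed here.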

How the data were processed

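Libraries were made by the authors from 500 ng of liver RNA with a QuantSeq 3′ kit, trimmed with BBDuk, aligned to GRCm38 with STAR 2.5.3a and counted with Rsubread. The deposited values are counts of reads per gene without normalization, and each gene in the table reached 10 reads in 5 livers or more. The annotation, strand setting and handling of multiply matching reads are not given in the sources used here. Groups were taken from the sample labels. No columns were identical among 55 pairs of libraries. Blank symbols (140 rows) were kept in the fit by gene identifier.

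Genes above 10 reads in 5 or more livers, the study's own filter, were tested with edgeR 4.0.16 in R 4.3.3 (quasi-likelihood, TMM, no covariates, Benjamini-Hochberg, adjusted p under 0.05). The study used DESeq2 1.38.3, and DESeq2 1.42.0 and limma 3.58.1 served as alternatives. Ratios used a pseudocount of 0.5. Positions and UTRs came from GENCODE M21, and similar transcripts from BLAST 2.17.0. Alternatives were other size factors, filters and tests, removal of *Mup* reads, a pseudocount of 2, and each liver left out. Leaving out the 3 *Mup*-rich livers together was chosen after seeing the data. The genes and lists were chosen with earlier results of these data known. All 10 synthesis genes were named, with at most 3 genes per direction and list by smallest p among those past the threshold, and the highest and lowest marker of each cell type list. One marker that this rule selects is not reported here.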

Additional observations from a re-analysis of the deposited data

Results flagged for a closer look

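Of 34 groups of values tested for a liver far from the others, 1 stood out, where chance alone gives about 1.7. It was the share of reads on *Mup* genes in the AAV-NC livers. AAV-NC 7 had 38.6% and the next liver 18.7%, a gap of 0.804 of the range of the group. None of the synthesis genes and none of the partner ratios was flagged in either group. The ratio of *Chpt1* to *Cept1* was not flagged although AAV-TuD 3 had 46.3 and the next AAV-TuD liver 21.3. The effect of AAV-NC 7 on the fold changes is covered by the fits without it.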

How the results depend on the processing

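No paired analysis was possible because no replicate number is shared between the 2 groups. The log2 fold change of *Chpt1* changed sign with DESeq2 (-0.0033), DESeq2 size factors (-0.0033), no filter (-0.00049) and limma-voom (-0.0029), and that of *Pcyt1a* with upper-quartile factors (0.0016) and without the 3 *Mup*-rich livers (0.0020). With library size alone, 2 synthesis genes were past the threshold and higher (*Chka* 0.64, *Chkb* 0.64), *Pcyt1a* (0.23), *Etnk1* (0.18), *Etnk2* (0.13), *Pcyt2* (0.11) and *Pemt* (0.15) turned positive, and 20 surrounding genes were higher and 0 lower. Without the 3 *Mup*-rich livers, 1 synthesis gene was higher (*Chkb* 0.55) and 7 surrounding genes lower. The difference in the log2 ratio of *Chpt1* to *Cept1* turned to 0.0054 with a pseudocount of 2. The causes were not tested.

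With each liver left out, 1013 (without AAV-TuD 4) to 1835 (without AAV-TuD 3) genes passed. The number of synthesis genes higher was 0 to 1 and lower 0, and that of surrounding genes 7 (without AAV-TuD 4) to 16 higher and 5 (without AAV-TuD 10) to 14 lower. Log2 fold changes ranged from 0.30 to 0.50 for *Chka*, 0.31 to 0.46 for *Chkb*, -0.038 to 0.029 for *Pcyt1a*, -0.058 to 0.081 for *Chpt1*, -0.045 to 0.25 for *Cept1*, -0.079 to 0.0057 for *Etnk1*, -0.20 to -0.03 for *Etnk2*, -0.15 to -0.08 for *Pcyt2*, -0.13 to -0.04 for *Pemt* and -0.0068 to 0.10 for *Lpcat3*. Ratio differences ranged from -0.26 to 0.12 for *Chpt1* to *Cept1*, -0.051 to 0.15 for *Chka* to *Chkb*, -0.061 to 0.14 for *Etnk1* to *Etnk2*, 0.06 to 0.16 for *Pcyt1a* to *Pcyt2* and -0.14 to -0.03 for *Pemt* to *Pcyt1a*. *Cept1*, with 15 to 53 reads per liver, had the widest interval of the 10.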
